A study of Mus musculus with 8 samples.

Results

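The genes described here are 10 genes of hepcidin signalling, iron handling and heme turnover in mouse liver: the hepcidin genes Hamp and Hamp2, the iron exporter Slc40a1, the transferrin receptor Tfrc, the ferritin chains Ftl1 and Fth1, the heme synthesis enzyme Alas1, and the heme breakdown enzymes Hmox1, Blvra and Blvrb. They were taken as every probe that the array annotation assigns to these symbols, which gave 12 probes of 25697 and 10 genes of 16593. Of the 10 genes, 8 had 1 probe, and Tfrc and Fth1 had 2 each. The genes were chosen by their log2 differences between the genotypes on these same arrays, so those differences are given as a description and nothing is supported by them.

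Liver was taken from 18-day-old mice of strain C57BL, 4 Cic-L-/- and 4 wildtype samples, and each RNA was hybridised to its own single-colour bead array. Cic-L-/- animals lack the long form of capicua, a transcriptional repressor. The label gives no Cre or promoter, so the deletion is described only by this genotype name, and the controls are described only as wildtype. The labels do not say that the 4 samples of a group are separate animals.

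Hepcidin is a peptide hormone that the liver secretes. It binds the iron exporter ferroportin (Slc40a1) on macrophages, enterocytes and hepatocytes and causes its loss from the cell surface, which keeps iron inside these cells. Hepatocytes transcribe Hamp under the control of a BMP-SMAD signal that reports iron and of an IL6-STAT3 signal that reports inflammation. Mice carry a paralog beside it, Hamp2, which has not shown the action of hepcidin on iron in transgenic mice. Heme is made from a first step catalysed by ALAS1 in the liver and is opened by heme oxygenase to biliverdin, iron and carbon monoxide, after which biliverdin reductases form bilirubin.

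The promoters of Hamp and Hamp2 are shown because Hamp2 lay lower in all Cic-L-/- samples and Hamp is its paralog. The stretch of Hamp that matches the BMP response element core also differs between them. Each line gives the 250 bases before the transcript start, 5′ to 3′, from RefSeq on GRCm38.p6: chr7:30944030-30944279 for Hamp and chr7:30924182-30924431 for Hamp2, both on the minus strand. Capitals mark, in this order, the BMP response element core of Hamp with the bases aligned to it in Hamp2, and the match to the STAT site.
Hamp: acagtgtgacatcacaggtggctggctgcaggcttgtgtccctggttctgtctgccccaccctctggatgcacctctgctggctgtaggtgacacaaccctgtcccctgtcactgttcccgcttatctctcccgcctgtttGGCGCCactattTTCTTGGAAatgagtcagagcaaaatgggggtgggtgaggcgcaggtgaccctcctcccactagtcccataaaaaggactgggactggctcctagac
Hamp2: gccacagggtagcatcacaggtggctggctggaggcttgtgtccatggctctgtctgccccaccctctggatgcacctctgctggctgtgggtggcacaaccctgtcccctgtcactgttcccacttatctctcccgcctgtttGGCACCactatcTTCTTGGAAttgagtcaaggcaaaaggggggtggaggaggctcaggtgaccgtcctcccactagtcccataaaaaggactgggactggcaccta

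Over the 247 aligned bases the promoters of Hamp and Hamp2 were identical at 227 and differed at 20, an identity of 91.9% with no internal gap. The motif GGCGCC, the core of the BMP response element, began 109 bases before the start of Hamp. The aligned stretch of Hamp2, which begins 106 bases before its start, differed from it by 1 substitution, G4A, counted from 1 at the 5′ end of the stretch. The motif TTCNNNGAA, a STAT site, was found in both, 97 bases before the start of Hamp and 94 before that of Hamp2, with the same letters TTCTTGGAA. On either strand, GGCGCC was present in 9.59% and TTCNNNGAA in 7.02% of the 32851 RefSeq promoter windows of this length.

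Promoter windows were available for 8 of the 10 genes, with Hmox1 and Slc40a1 not among them, and made 12 windows. GGCGCC was also found in a window of Tfrc, and TTCNNNGAA in 1 of Alas1. The antioxidant response element core TGACNNNGC, the site of the stress factor NRF2, was found in the window of Blvra and in 10.2% of all windows. The capicua octamers TGAATGAA and TGAATGGA were found in 0 of the 12 windows and in 1.08% and 1.01% of all windows. A match is a run of letters and shows no binding, and a missing match says only that these letters are not in the 250 bases searched.

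All signals below are on the log2 scale after background correction and quantile normalisation, and a probe counts as above background when it outshone more than 95% of the control rows of its array. Differences are Cic-L-/- minus wildtype. Of the array's probes, 38.7% to 43.5% were above background per sample, and 8255 features (the brightest usable probe of each gene, and unnamed probes) were tested. Cic-L-/- replicates 1 and 2 stood apart from replicates 3 and 4: on the second principal component, with 14.2% of the variance, they lay at 13.7 and 12.8 against -11.6 and -25.0, and the wildtype samples at 1.3 to 3.7. Values of the genes described here, and the calls made, are therefore also given without them where they moved. Of the 12 hepatocyte markers, Serpina1b, Ahsg and Apoa1 were the brightest in both groups. The probe of Alb was dim (4.70 to 5.86 in Cic-L-/- and 5.48 to 6.48 in wildtype samples), and Tat and Fgb were not above background on any array.

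The hepcidin paralog Hamp2 showed the widest gap between the genotypes among the 10 genes. Its log2 signal was 9.91, 9.91, 11.60 and 12.60 in wildtype replicates 1 to 4. In Cic-L-/- replicates 1 to 4 it was 7.97, 7.45, 9.24 and 9.04. All Cic-L-/- values lay below all wildtype values, with 0.68 between the highest Cic-L-/- and the lowest wildtype sample. Hamp2 was above background on all 8 arrays, and its deposited signal ran from 318 to 712 in Cic-L-/- and from 956 to 5540 in wildtype liver. The means were 8.42 ± 0.86 and 11.01 ± 1.33 (SD, n = 4), a difference of -2.58 ± 0.58 (SE), or 5.99-fold lower signal.

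The spread within each genotype was wide for Hamp2. Wildtype replicates 3 and 4 lay above replicates 1 and 2, and Cic-L-/- replicates 1 and 2 lay below replicates 3 and 4. Only 3 of the 8255 features had a larger pooled SD within the groups than Hamp2 (1.12), and only 6 had a larger one than Hamp (0.90). Without wildtype replicate 4 the Hamp2 difference was -2.05, and without both Cic-L-/- replicates 1 and 2 it was -1.87.

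Hamp, which encodes the iron hormone itself, gave a signal near background. It was above background on 3 wildtype arrays and 1 Cic-L-/- array. Its log2 signal was 5.41, 4.94, 7.58 and 6.66 in wildtype replicates 1 to 4 and 4.61, 4.97, 5.14 and 5.57 in Cic-L-/- replicates 1 to 4. The groups overlapped: wildtype replicates 3 and 4 lay above every Cic-L-/- sample, and wildtype replicates 1 and 2 lay among them. The difference was -1.08 ± 0.47 (SE, means 5.07 ± 0.40 and 6.15 ± 1.20, SD, n = 4). It was -0.60 without wildtype replicate 3, -0.79 without both Cic-L-/- replicates 1 and 2, and -0.42 (1.34-fold lower rather than 2.11-fold) in the deposited normalised values, which have no background subtraction.

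Wildtype replicates 3 and 4 were thus the highest samples for both hepcidin genes. Pearson's r between the deviations of Hamp and of Hamp2 from their group means was 0.75 over the 8 arrays, which share the normalisation, and 319 of the other 7636 named genes were at least as close to Hamp2, counting Hamp. The closest to Hamp2 in this measure were Ago4 (0.98), Fyco1 (0.97), Sox12, Cxcl1 and Pdia4 (0.96 each). The closest to Hamp were Dnm1l (0.99), Gpat3 (0.98), Psmc6, Copz1 and Tpst1 (0.97 each). None of these 10 genes was called between the genotypes. Their r values are the highest of 7636 over 8 arrays, so they are high by selection. No link between genes is read from them. The probe sequences were not used here, and how far each hepcidin probe also binds the paralog's transcript was not tested.

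**Figure D1:**
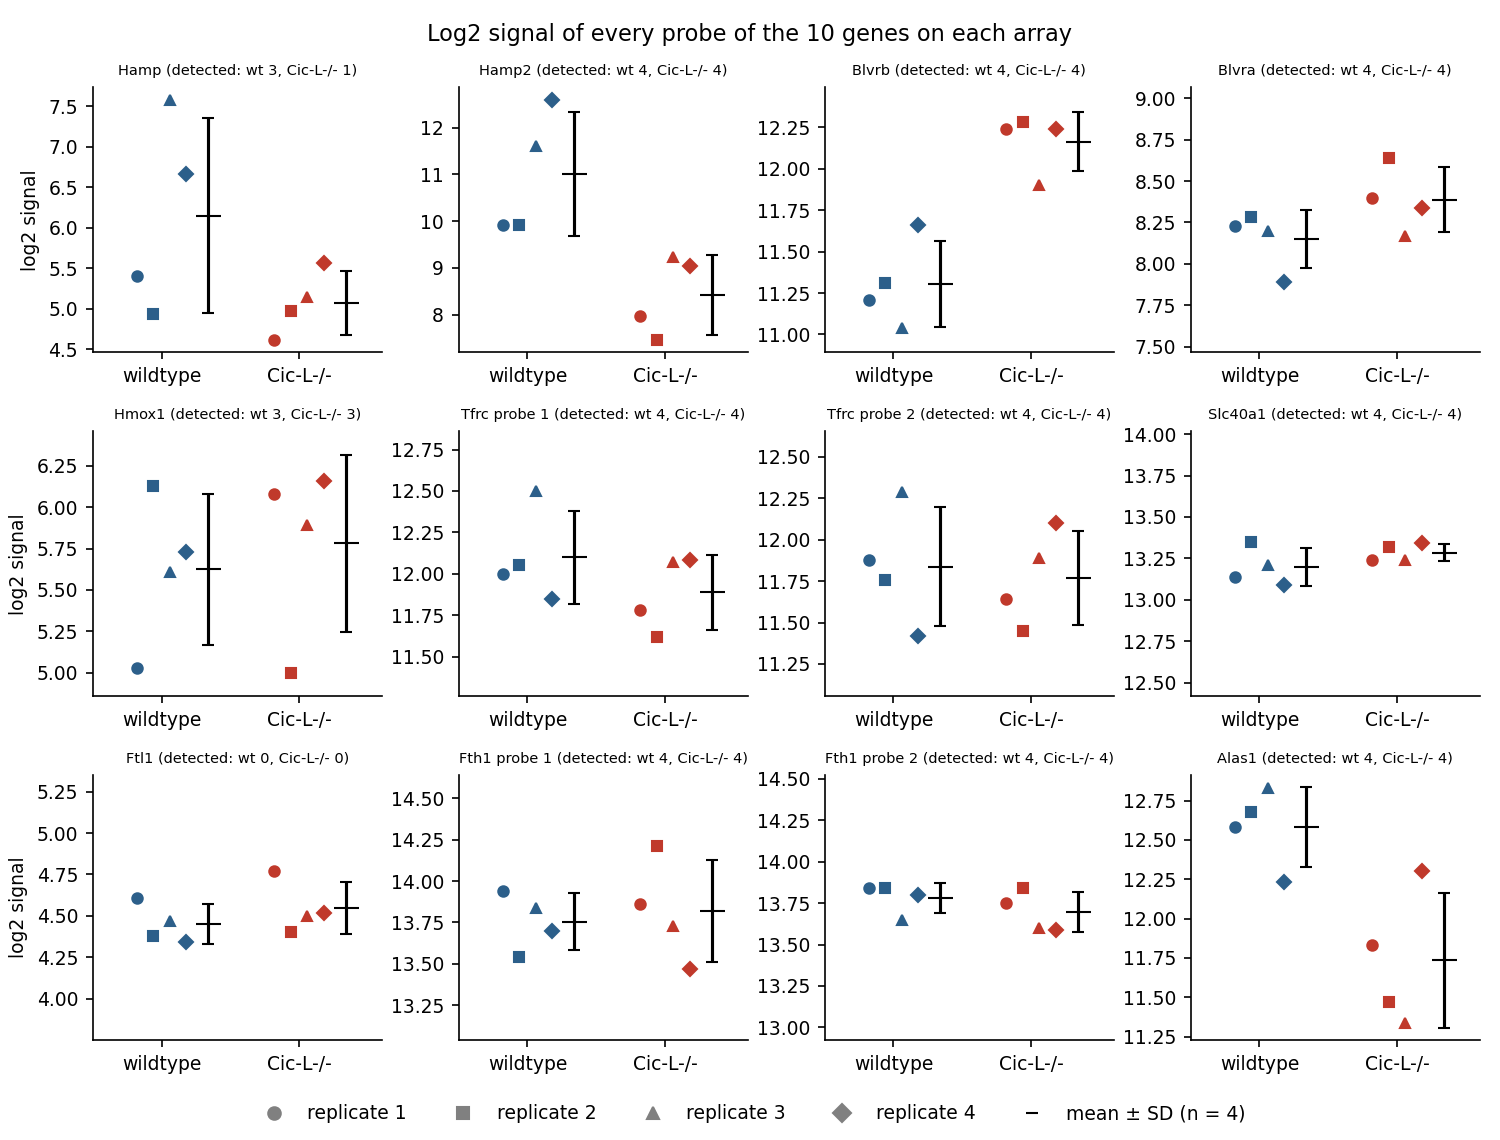
Log2 signal (vertical axes, a scale of its own in each panel) of the 12 probes of the 10 genes in the 4 wildtype (blue) and 4 Cic-L-/- (red) samples, with marker shapes for replicate numbers and the mean ± SD (n = 4) in black; panel titles give the number of arrays above background per group. The groups are apart for Hamp2 and Blvrb, Alas1 overlaps through 1 Cic-L-/- sample, and Ftl1 is above background on 0 arrays.

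Among the genes of heme breakdown, Blvrb lay higher in every Cic-L-/- sample. Blvrb encodes biliverdin reductase B, which reduces the beta isomer of biliverdin and also flavins. Its log2 signal was 11.21, 11.31, 11.04 and 11.66 in wildtype replicates 1 to 4. In Cic-L-/- replicates 1 to 4 it was 12.24, 12.28, 11.90 and 12.24, and the lowest of these, replicate 3, still exceeded the highest wildtype sample by 0.25. The means were 12.17 ± 0.18 and 11.30 ± 0.26 (SD, n = 4), a difference of 0.86 ± 0.17 (SE), or 1.82-fold. The difference lay between 0.77 and 0.98 whichever array was left out, and was 0.77 without both Cic-L-/- replicates 1 and 2.

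Blvra and Hmox1 overlapped between the genotypes. Blvra, the reductase of the alpha isomer that forms the bilirubin of adult bile, had log2 signals of 7.89 to 8.28 in wildtype and 8.17 to 8.64 in Cic-L-/- liver, a difference of 0.24 ± 0.16 (SE), or 0.11 without both Cic-L-/- replicates 1 and 2. Hmox1, the inducible heme oxygenase that opens the heme ring, was dim, above background on 3 arrays of each group. Its values were 5.03 to 6.13 in wildtype samples and 5.89 to 6.16 in Cic-L-/- replicates 1, 3 and 4, with replicate 2 just below the lowest wildtype sample. The groups overlapped, with a difference of 0.16 ± 0.28 (SE) that turned to -0.04 without wildtype replicate 1 and was 0.40 without both Cic-L-/- replicates 1 and 2. In Blvrb the deviations from the group means were closest to those of Cnnm3 (Pearson's r 0.97 over the 8 arrays), Twistnb, Nsun3, Bora and Thnsl2 (0.96 each), none of which was called. These values too are high by selection.

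Alas1, the first and rate-limiting enzyme of heme synthesis outside red cells, lay lower in Cic-L-/- liver in all but 1 sample. Its log2 signal was 12.58, 12.68, 12.83 and 12.23 in wildtype replicates 1 to 4 and 11.83, 11.47, 11.34 and 12.30 in Cic-L-/- replicates 1 to 4. Cic-L-/- replicate 4 lay just above wildtype replicate 4, and the other 3 Cic-L-/- samples lay below all wildtype samples. The means were 11.74 ± 0.43 and 12.58 ± 0.26 (SD, n = 4), a difference of -0.84 ± 0.22 (SE), or 1.79-fold lower signal. It was -0.76 without both Cic-L-/- replicates 1 and 2.

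The iron exporter Slc40a1, the receptor Tfrc and the ferritin chain Fth1 were bright, and their groups overlapped. Slc40a1, or ferroportin, the one known cellular iron exporter and the target of hepcidin, was at 13.09 to 13.35 in wildtype and 13.24 to 13.34 in Cic-L-/- samples (difference 0.09 ± 0.13, SE). Its pooled SD of 0.09 was smaller than that of all but 2.02% of features. The transferrin receptor Tfrc, which takes up transferrin-bound iron, differed by -0.21 ± 0.18 (SE) on its brighter probe and by -0.06 ± 0.20 on the other. These differences were -0.02 and 0.16 without both Cic-L-/- replicates 1 and 2. Both Tfrc probes were lowest in the Cic-L-/- group in replicates 1 and 2 and highest of all samples in wildtype replicate 3.

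The heavy ferritin chain Fth1, which oxidises iron for storage, differed by 0.06 ± 0.18 (SE) and -0.09 ± 0.10 on its 2 probes, and by -0.16 and -0.19 without both Cic-L-/- replicates 1 and 2. The brighter probe ran from 13.47 to 14.21 in Cic-L-/- and from 13.54 to 13.94 in wildtype samples. The probe of the light chain Ftl1 was not above background on any of the 8 arrays (4.34 to 4.77), so it gives no measure of this gene.

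**Figure D2:**
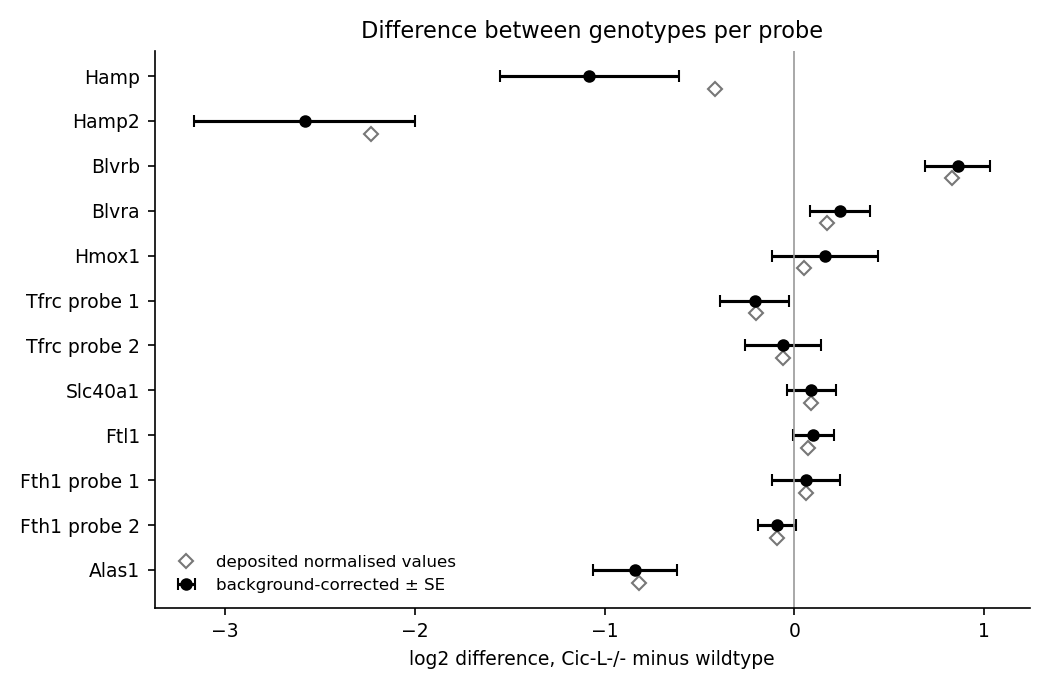
Log2 difference (horizontal axis, Cic-L-/- minus wildtype) of each of the 12 probes, as black points with the standard error after background correction and as open diamonds in the deposited normalised values. Hamp2 lies at -2.58, Alas1 at -0.84 and Blvrb at 0.86, and the Hamp difference shrinks from -1.08 to -0.42 without background correction.

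In the fit over all features, 3 of the 9 genes that could be tested were called at an adjusted p under 0.05 (Hamp2 and Alas1 lower, Blvrb higher), where 7.39% of all features were called, 4.49% higher and 2.9% lower. The groups did not overlap for 2 of the 9 (Hamp2 below, Blvrb above), where they did not overlap for 15.1% of all features, with Cic-L-/- above for 8.53% and below for 6.55%. The median difference was 0.06 over the 9 genes and 0.00 over all features. Since the genes were chosen with this contrast known, nothing is read from these counts. Hamp passed the filter on dim probes with the fewest arrays allowed, 4.

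Hamp, Hamp2, Blvrb and Ftl1 lie on chromosome 7, which also holds Cic, and the other 6 genes lie on chromosomes 1, 2, 8, 9, 16 and 19. In the gene order of assembly GRCm38.p6, 49 protein-coding genes separate Cic from Blvrb, 184 separate it from Hamp2, and Hamp is the next gene. The neighbours of both loci were looked at after the values above had been seen. Of the 10 tested genes nearest to the hepcidin pair, 5 on each side, 0 were called by limma, with differences of -0.59 (Fxyd1) to 0.32 (Mag). Of the 10 nearest to Blvrb, 0 were called, with differences of -0.45 (Zfp60) to 0.40 (Coq8b). At an adjusted p the smallest value among these 20 was 0.137, for Fxyd1.

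The surrounding pathway was described with lists of genes for hepcidin control, iron handling, heme synthesis, heme disposal and the NRF2 response. The hepcidin control list includes target genes of its signals as well as regulators. The lists hold 100 genes in all besides the 10. Of these 69 could be tested, 4 rose (limma, adjusted p under 0.05) and 0 fell. That share of 5.80% is near the 7.39% of all features, and the median difference of the 69 was 0.07. Without both Cic-L-/- replicates 1 and 2, none of these 4 passed. There 1 of the 69 was called, the NRF2 gene Nfe2l2, which was lower in Cic-L-/- (-0.87).

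Of 18 tested genes of the hepcidin control list, the transcriptional inhibitors Id1 and Id2 rose, and the other 16 did not pass. Both stand in the list as known targets of BMP-SMAD signalling. So do Id3 (0.35, adjusted p = 0.434) and Smad6 (0.07, adjusted p = 0.867), which did not pass. Id2 was at 6.55 to 7.22 in wildtype and at 7.90 to 8.26 in Cic-L-/- samples, a change of 1.04 ± 0.18 (SE, adjusted p = 0.00563). Id1 was at 4.94 to 5.61 in wildtype samples, 2 of them above background, and at 6.04 to 6.28 in Cic-L-/- samples, a change of 0.92 ± 0.17 (SE, adjusted p = 0.00873). Neither gene overlapped between the groups, and both were higher in every Cic-L-/- sample than in any wildtype sample. Within the groups there was no single order against Hamp2. Id1 and Id2 were highest in Cic-L-/- replicate 2, which had the lowest Hamp2 (7.45). Among wildtype samples Id1 was highest (5.61) in replicate 4, which had the highest Hamp2 (12.60). Without background correction the changes were 0.63 for Id2 (adjusted p = 0.00239) and 0.29 for Id1 (adjusted p = 0.0396). Without both Cic-L-/- replicates 1 and 2 the changes were 0.99 (adjusted p = 0.0725) for Id2 and 0.87 (adjusted p = 0.0916) for Id1.

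The other named genes of hepcidin control that could be tested did not pass. The iron sensor Tfr2 differed by -0.13 (adjusted p = 0.657), the protease Tmprss6, which cleaves the BMP co-receptor hemojuvelin, by -0.17 (adjusted p = 0.560), and Socs3, the feedback inhibitor induced by STAT3, by 0.25 (adjusted p = 0.403). Hfe, the sensor mutated in hereditary hemochromatosis, lay at 6.80 to 8.04 in Cic-L-/- and at 5.56 to 6.74 in wildtype samples, with no overlap. Its difference was 1.16 ± 0.32 (SE, adjusted p = 0.0532), with adjusted p from 0.00884 to 0.372 over the alternative settings, the highest without both Cic-L-/- replicates 1 and 2. Hfe was named after its values were seen. The BMP ligands Bmp6 and Bmp2 were not above background on any array, and hemojuvelin (Hjv) was on 1.

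Of 17 tested genes of iron uptake, transport, sensing and storage, 0 were called. Transferrin (Trf), the iron carrier of plasma, was at 15.28 ± 0.08 in Cic-L-/- and 15.27 ± 0.10 in wildtype liver (SD, n = 4, adjusted p = 0.964). Quantile normalisation gives the brightest probes of every array the same few values. Trf took only 15.18, 15.24 or 15.35, so a change in it could be hidden. The intracellular iron sensors Aco1 and Ireb2, which control the messages of Tfrc and the ferritins, differed by -0.01 (adjusted p = 0.986) and 0.02 (adjusted p = 0.961). The siderophore-binding protein Lcn2 was at 10.90 and 11.13 in Cic-L-/- replicates 1 and 2, at 8.79 and 8.92 in replicates 3 and 4, and at 9.27 to 9.29 in wildtype samples. Its difference was 0.65 (adjusted p = 0.452), and -0.43 (adjusted p = 0.211) without both Cic-L-/- replicates 1 and 2. The importer Slc11a2 differed by -0.36 (adjusted p = 0.338), Iscu, the scaffold of iron-sulfur cluster assembly, by 0.24 (adjusted p = 0.345) and the mitochondrial iron carrier Slc25a28 by 0.23 (adjusted p = 0.459).

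Of 12 tested genes of heme synthesis other than Alas1, 0 were called. The transporter Abcb10 (-0.52, adjusted p = 0.257), the erythroid synthase Alas2 (0.30, adjusted p = 0.295), Uros (-0.36, adjusted p = 0.361), which closes the ring of the porphyrin precursor, and the glycine carrier Slc25a38 (-0.25, adjusted p = 0.401) had the smallest adjusted p. Of 10 tested genes of the NRF2 response, 0 were called. The factor Nfe2l2 itself differed by -0.52 (adjusted p = 0.139), the glutathione synthesis subunit Gclm by 0.35 (adjusted p = 0.223), Txnrd1 by -0.33 (adjusted p = 0.458) and Tkt by -0.31 (adjusted p = 0.494). The groups did not overlap for Nfe2l2 (Cic-L-/- below) and Gclm (Cic-L-/- above). Without both Cic-L-/- replicates 1 and 2 the Nfe2l2 difference was -0.87 and passed (adjusted p = 0.0369). Nfe2l2 was dim, above background on 3 Cic-L-/- and 4 wildtype arrays. Its difference was -0.17 without background correction (adjusted p = 0.248).

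Of 12 tested genes of heme scavenging and disposal, Spic and Flvcr2 rose and the other 10 did not pass. Spic, the transcription factor of iron-recycling macrophages, which heme induces, was at 5.36 to 5.88 in wildtype and 6.39 to 7.20 in Cic-L-/- samples, a change of 1.11 ± 0.20 (SE, adjusted p = 0.00747). Flvcr2, a membrane transporter first described as a heme importer, was at 9.14 to 9.36 in wildtype and 9.82 to 10.50 in Cic-L-/- samples, a change of 0.79 ± 0.17 (SE, adjusted p = 0.0175). The plasma scavengers of heme and hemoglobin, hemopexin (Hpx, 0.17, adjusted p = 0.511) and haptoglobin (Hp, 0.17, adjusted p = 0.487), did not pass. Hp was at 15.66 in every wildtype sample, among the brightest probes, where quantile normalisation limits how far values can differ. Hmox2, the constitutive heme oxygenase, lay at 8.16 to 8.34 in Cic-L-/- and 8.44 to 8.69 in wildtype samples, with no overlap, and its difference of -0.31 did not pass (adjusted p = 0.200). Without background correction the Spic change was 0.43 (adjusted p = 0.0191). Without both Cic-L-/- replicates 1 and 2 the changes were 0.83 for Spic (adjusted p = 0.0775) and 0.91 for Flvcr2 (adjusted p = 0.0739).

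**Figure D3:**
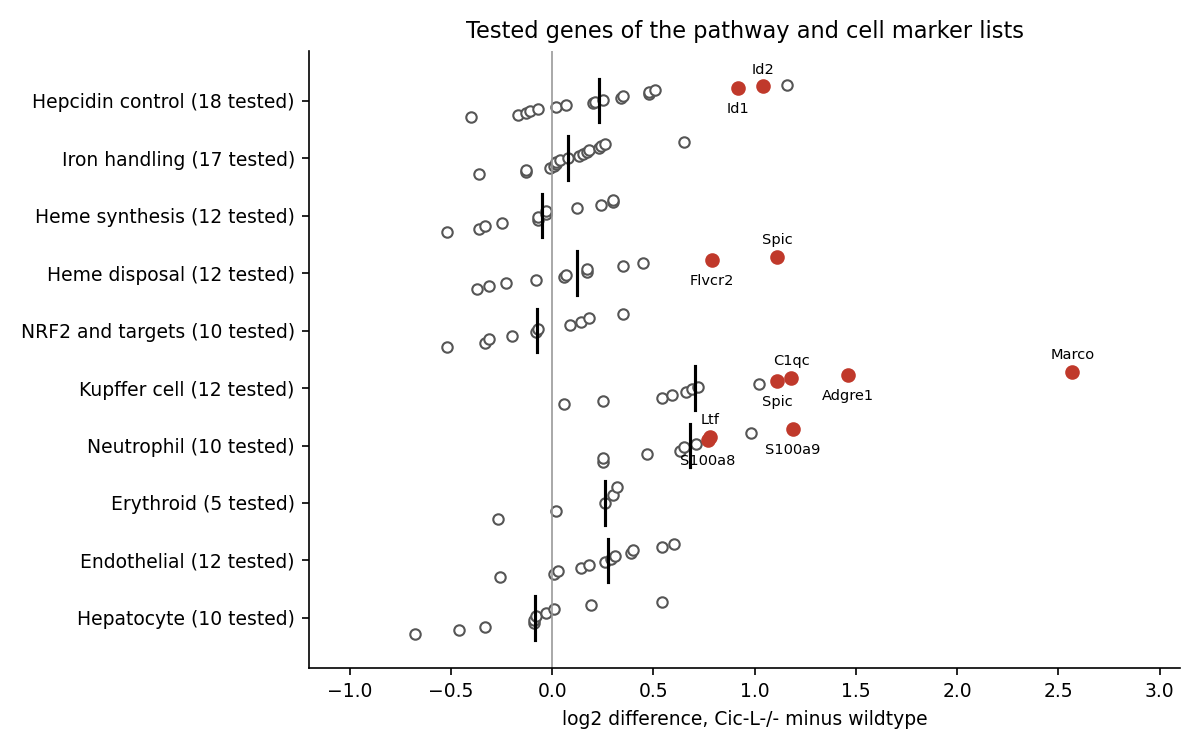
Log2 difference (horizontal axis, Cic-L-/- minus wildtype) of each tested gene of 5 pathway lists and 5 cell marker lists, with called genes (limma, adjusted p under 0.05) filled and named and the median of each list as a bar. Called genes are few in the pathway lists and lie on the higher side, and the Kupffer and neutrophil lists have medians of 0.70 and 0.68.

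Spic is also a marker of macrophages, and stands in the Kupffer cell list. Of the 12 tested genes of that list 4 rose, namely Adgre1 (1.46, adjusted p = 0.0156), Marco (2.57, adjusted p = 0.0232), C1qc (1.18, adjusted p = 0.0166) and Spic, and the other 8 did not pass. The difference was positive for 12 of 12, as it was for 10 of 10 tested neutrophil and 11 of 12 tested endothelial markers. It rests in part on Cic-L-/- replicates 1 and 2, since Lyz2 was lower in replicates 3 and 4 than in any wildtype sample. Marco was above background on all 4 Cic-L-/- arrays but on 1 wildtype array (4.81 to 5.66), so its difference depends on the background correction and was 1.26 without it. The Marco call ended without background correction, without the detection filter and without any of 5 single arrays (highest adjusted p = 0.0731), and the Adgre1 and C1qc calls ended without Cic-L-/- replicate 1 and 2 respectively (adjusted p = 0.0526 and 0.0531). Without both Cic-L-/- replicates 1 and 2 none of the 4 passed, with changes of 0.84 for Adgre1 (adjusted p = 0.0972), 1.29 for Marco (adjusted p = 0.101) and 0.68 for C1qc (adjusted p = 0.0905) beside that of Spic above. The summed signal of the 13 measured genes, led by Vsig4, Mrc1 and Clec4f, was 12100, 11900, 5690 and 5780 in Cic-L-/- replicates 1 to 4 and 4640 to 4890 in wildtype samples. Cd5l was not above background on any array. Cic-L-/- replicates 1 and 2, with the highest Kupffer sums, were also the samples with the lowest Hamp2, and Cic-L-/- replicate 1 had the highest Spic. In a whole-tissue sample more cells of a type and more RNA per cell cannot be told apart, and the part of macrophage RNA in these results was not tested.

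Of 10 tested neutrophil markers 3 rose and 7 did not pass. Those that rose were S100a9 (1.19, adjusted p = 0.0028), Ltf (0.78, adjusted p = 0.0123) and S100a8 (0.77, adjusted p = 0.031). Without both Cic-L-/- replicates 1 and 2 the adjusted p was 0.0471 for S100a9, 0.085 for Ltf and 0.191 for S100a8, and the S100a8 call also ended without either of these arrays, without wildtype replicate 1 or 2, and with the replicate number as a block (highest adjusted p = 0.0849). The summed signal of the 12 measured genes, led by S100a8, Lcn2 and Ltf, was 3950 to 7500 in Cic-L-/- and 2810 to 3290 in wildtype samples. Of the erythroid markers, which bear on heme synthesis because red cell precursors make most heme, 0 of 5 tested genes were called. Their summed signal was 14700 to 29700 in Cic-L-/- and 20900 to 23400 in wildtype samples, led by Hba-a1, Slc4a1 and Alas2, and Hbb-b2, Epb42, Ermap, Rhd and Cldn13 were not above background on any array. Of 12 tested endothelial and 10 tested hepatocyte markers 0 were called. The endothelial sums, led by Clec4g, Oit3 and Fcgr2b, were 6090 to 8180 in Cic-L-/- and 5630 to 6480 in wildtype samples. The hepatocyte sums were 241000 to 258000 and 248000 to 259000. They are led by the brightest probes, whose values quantile normalisation holds nearly the same on every array. The part of these cells in the results was not tested.

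**Figure D4:**
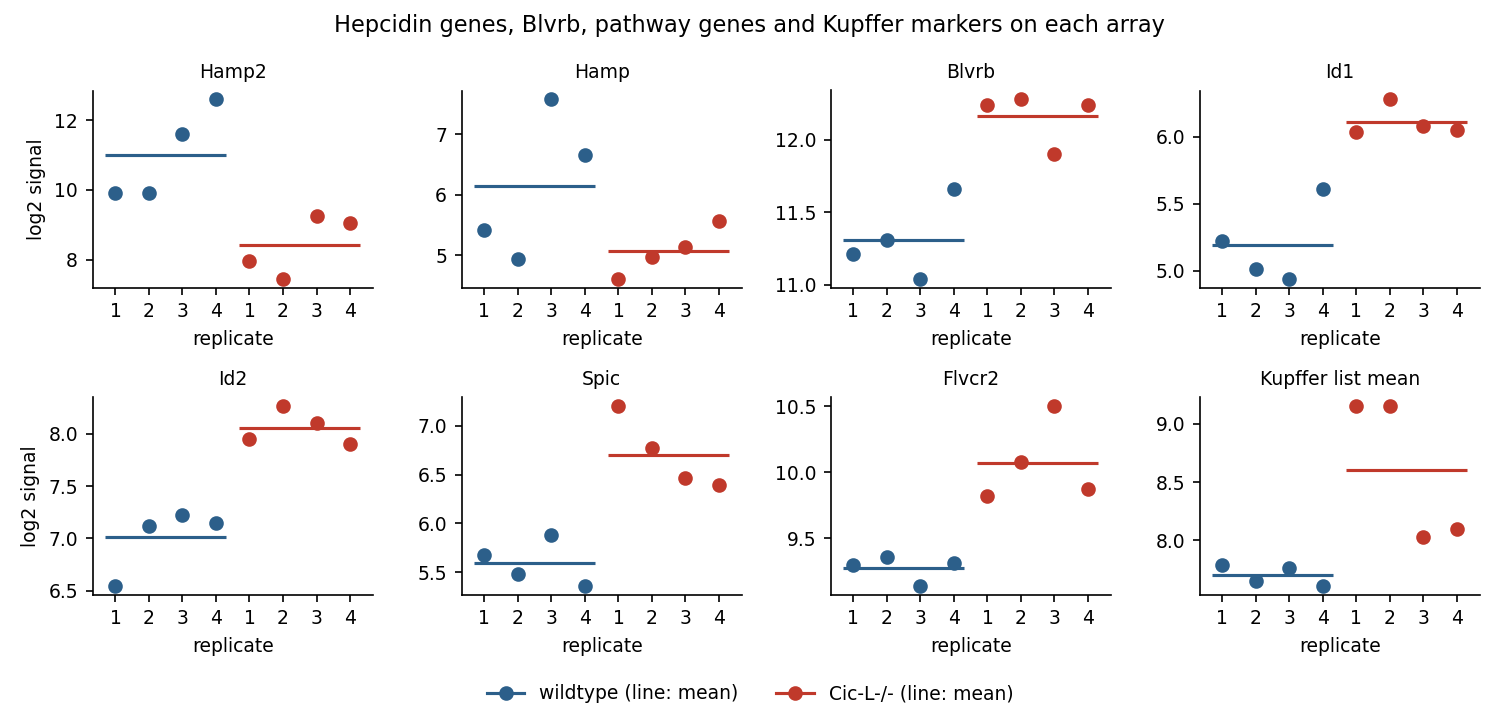
Log2 signal (vertical axes, a scale of its own in each panel) of Hamp2, Hamp, Blvrb, Id1, Id2, Spic and Flvcr2 and the mean over the tested Kupffer markers on each of the 4 wildtype (blue) and 4 Cic-L-/- (red) arrays, with horizontal lines at the group means. Cic-L-/- replicates 1 and 2 have the lowest Hamp2 values (7.97 and 7.45) and the highest Kupffer means (9.15 each, against 7.61 to 7.79 in wildtype samples). In all 4 Cic-L-/- samples Hamp2 lies below every wildtype sample. Blvrb, Id1, Id2, Spic, Flvcr2 and the Kupffer mean lie above every wildtype sample in all 4.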

How the data were processed

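RNA was labelled with Cy3 by the Illumina protocol, per the labels' protocols. The sources used here name no bead summary software. The authors deposited intensity values on a linear scale, not normalised between arrays. The deposited normalised table holds log2 values: log2 and quantile normalisation of the intensities gave them to within 5e-05, and the series matrix differed from them by 0. The 1124 rows without a probe ID were taken as negative controls, a reading of the values. Intensities were corrected with normexp (limma 3.58.1, R 4.3.3, robust, offset 16), logged and quantile normalised. A probe's detection p was the share of control rows at least as bright. The filter asked for a value under 0.05 on 4 or more arrays and left 10300 probes, of which the brightest per gene gave 8255 features. limma (lmFit, eBayes, two-sided, no covariate) compared 4 with 4 samples, with Benjamini-Hochberg adjustment over all features; these p-values rest on sample-to-sample spread alone, part of which may be technical. Fold changes on the offset scale understate changes of dim probes. The number of arrays limits the precision.

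Annotation gave 23978 probes 1 gene symbol, 0 several and 1719 none, and RefSeq changed 0 symbols. The standard errors of Ftl1 and of the dimmer Tfrc and Fth1 probes come from a fit over all probes. The members and the gene lists were chosen with earlier results of these data known. Named genes were all 10 members, and the called genes of each pathway list or else its 4 smallest adjusted p. A short set of core genes and the brightest markers were named too. Hfe, Hmox2, Id3, Smad6, Aco1, Ireb2, Bmp2, Alb, the called markers and the neighbours were added after their values were seen. Smad7 and Ugt1a1, also in the set of core genes, were not analysed here. Promoters were aligned with Biopython 1.88. Alternatives changed the background correction, offset, normalisation, filter, probe choice, variance model, replicate block and samples.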

Additional observations from a re-analysis of the deposited data

Results flagged for a closer look

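In 5 of 68 groups of 4 values examined, over the 12 probes and the named pathway genes, 1 sample stood far from the other 3, by the share of the group's range that the gap to its nearest neighbour takes (Dixon's test). Chance gives this in about 1 group in 20. Blvrb was lower in Cic-L-/- replicate 3 (11.90) than in the other Cic-L-/- samples (12.24 to 12.28), with a gap of 0.881 of the range. Id1 was higher in Cic-L-/- replicate 2 (6.28, others 6.04 to 6.08), at 0.844. In wildtype liver, Id2 was lower in replicate 1 (6.55, others 7.12 to 7.22), at 0.857. Slc11a2 was lower in wildtype replicate 3 (6.45, others 6.71 to 6.73), at 0.928, and Tfr2 in wildtype replicate 1 (10.26, others 10.49 to 10.52), at 0.895.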

How the results depend on the processing

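The count of 610 called features (371 higher, 239 lower) was 326 to 628 when 1 array was left out, with values of 326 and 349 without Cic-L-/- replicates 1 and 2 and 388, 398 and 396 without wildtype replicates 1, 2 and 4. It was 148 without both Cic-L-/- replicates 1 and 2, an alternative chosen after seeing the data that leaves 2 samples against 4. There 1 pathway gene was called, Nfe2l2, which was lower, and none of the 4 of the main fit passed. The pathway count was 4 or 5 under every other setting tried. Median centring moved the median of all features by 0.17 and gave 683 higher and 134 lower calls. It moved Blvra from 0.24 to 0.43, which was the only one of 204 alternative values of the 12 probes to move by more than the SD within the groups. Changes of filter, probe choice, variance model and replicate block cannot move these differences, so many of the 204 values were fixed beforehand. The signs of Hmox1, of the dimmer Tfrc probe and of both Fth1 probes, none of them called, were not the same under all alternatives. With the replicate number as a replicate block, 5 pathway genes were called in place of 4. The deviations of same-numbered samples correlated at 0.00, -0.01, -0.03 and 0.05. This gave no sign that the numbers pair the samples, but it cannot show that pairing is absent. The limit for Hamp, Hmox1 and Ftl1 is their signal near background. That background differed by genotype. The median intensity of the control rows was 138.5 to 141.9 in Cic-L-/- and 114.2 to 136.3 in wildtype samples, with no overlap. Its part in the differences of dim probes, such as those of Hamp, Id1, Spic and Marco, was not tested.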
